A study of Mus musculus with 2 samples.

Results

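The clock output transcription factors are a group of 9 genes, Dbp, Tef, Hlf, Nfil3, Ciart, Bhlhe40, Bhlhe41, Rora and Klf10, read by 22 of the 45037 gene probesets on the array. They were chosen by name, as every probeset annotated to a single gene of that list under its current or an older symbol, among 18194 genes that have such a probeset. The mice were C57BL/6J males of an inbred strain, 4 months of age, kept for 4 weeks on semisynthetic food with 20% fat by weight. In the EPA&DHA diet, 44% of the fat was a concentrate with 6% EPA and 51% DHA, the long chain n-3 fatty acids of marine oils, and in the control diet all fat was flaxseed oil, rich in their precursor ALA. RNA from 11 of the 12 mice on EPA&DHA and from 10 of the 12 mice on the control diet was combined into 1 pool per diet, and each pool was hybridized to 1 Affymetrix array. The sample labels describe whole small intestine but the methods describe scraped epithelial cells, and the hour of killing was not given in the sources used here.

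Almost every cell carries a circadian clock, in which the activators CLOCK and BMAL1 bind E-boxes in DNA and switch on their own inhibitors. A second tier of transcription factors carries the rhythm to other genes, and E-boxes drive some but not all of them. In this tier the PAR bZIP factors DBP, TEF and HLF activate genes through D-boxes and NFIL3 represses the same sites, while CIART and the bHLH factors BHLHE40 and BHLHE41 repress transcription by CLOCK and BMAL1, and RORα activates Bmal1 through ROR elements. In the mouse intestine and liver these outputs are known to reach transporters and enzymes that handle nutrients and drugs.

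On the EPA&DHA array the PAR bZIP factors and Ciart had higher signals than on the control array, Nfil3, Bhlhe40 and Klf10 had nearly the same signals, and Rora was too dim for its probesets to give 1 direction. With 1 array per diet there were no replicates, so the spread between mice was not measured and no test was made, and all ratios describe this pair of pools. A ratio is the EPA&DHA signal over the control signal, and a probeset was kept when the geometric mean of its 2 signals was at least 50. Of the 13 kept probesets of the group, 5 were higher on EPA&DHA by 1.5-fold or more, where 8.11% of all 24461 kept probesets were, and 2 were lower by 1.5-fold or more, where 9.01% of all were. At 2-fold, 3 were higher and 1 was lower, against 2.31% and 2.63% of all kept probesets. That split depended on scaling, since after quantile normalization 3 of the group were higher and 0 lower, against 2.85% and 2.02% of all, and after a loess correction 3 were higher and 0 lower, against 2.82% and 2.09%. The probeset of Ciart was kept only through its EPA&DHA signal. The 2 probesets lower by 1.5-fold or more, both of Rora, were kept only through their control signals. A filter of 50 on both arrays removed all of these. The median log2 ratio of the 13 was 0.49, and that of all kept probesets was -0.04. In bulk RNA of this kind, fewer cells of a type and less RNA per cell cannot be told apart.

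**Figure D1:**
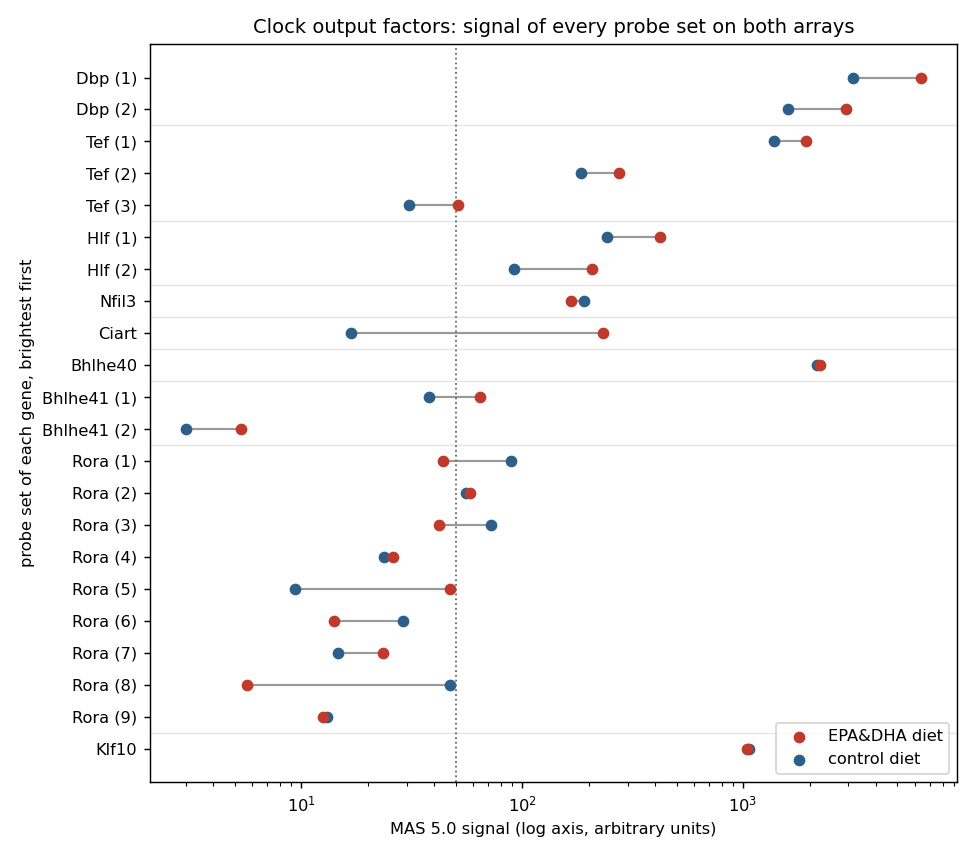
MAS 5.0 signal (log axis) of each of the 22 probesets of the group on the EPA&DHA array (red) and on the control array (blue), with the brightest probeset of a gene first and a dotted line at a signal of 50. All 7 probesets of Dbp, Tef and Hlf lie higher on EPA&DHA, while the 9 probesets of Rora are dim and point both ways.

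The short promoter windows searched for the group differed in the E-boxes they hold. Windows of 300 bases from RefSeq (mouse build GRCm38.p6), 250 before and 50 after a transcription start, were found for 7 of the 9 genes and gave 8 windows, as Tef has 2 starts. Bhlhe40 and Klf10 were not matched. Both strands were searched for the E-box CACGTG, the related CACGTT, the D-box as TTATGTAA or TTATGCAA and the core of the ROR element, TAGGTCA. The E-box stood in 4 of the 8 windows, of 3 genes, and in 7.15% of all 32851 windows. The Ciart window held 3 E-boxes, each window of Tef held 1 and that of Bhlhe41 held 1. The windows of Ciart, Tef and Nfil3 are printed 5′ to 3′ on the strand of the gene, with E-boxes and the ROR core in capitals, because they show the promoter with 3 E-boxes, both starts of Tef and the ROR core.
Ciart (chr3:95882179-95882478, minus strand): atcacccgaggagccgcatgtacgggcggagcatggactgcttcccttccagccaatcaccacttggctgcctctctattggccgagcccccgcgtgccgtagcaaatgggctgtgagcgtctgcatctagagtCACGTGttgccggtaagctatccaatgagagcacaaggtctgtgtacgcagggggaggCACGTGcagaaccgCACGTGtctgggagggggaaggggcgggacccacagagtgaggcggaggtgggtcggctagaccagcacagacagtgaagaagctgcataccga
Tef, first start (chr15:81802423-81802722, plus strand): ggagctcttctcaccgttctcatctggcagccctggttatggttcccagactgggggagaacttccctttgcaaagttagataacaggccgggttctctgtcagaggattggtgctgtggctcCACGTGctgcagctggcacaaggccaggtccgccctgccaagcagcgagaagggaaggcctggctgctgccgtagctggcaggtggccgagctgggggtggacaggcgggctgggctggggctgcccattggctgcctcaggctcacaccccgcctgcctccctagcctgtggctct
Tef, second start (chr15:81811164-81811463, plus strand): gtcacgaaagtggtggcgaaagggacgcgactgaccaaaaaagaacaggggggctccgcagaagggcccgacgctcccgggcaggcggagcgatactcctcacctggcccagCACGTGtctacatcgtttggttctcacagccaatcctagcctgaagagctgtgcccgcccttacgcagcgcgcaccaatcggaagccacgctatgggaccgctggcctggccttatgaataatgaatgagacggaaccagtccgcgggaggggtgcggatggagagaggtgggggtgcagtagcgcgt
Nfil3 (chr13:52980990-52981289, minus strand): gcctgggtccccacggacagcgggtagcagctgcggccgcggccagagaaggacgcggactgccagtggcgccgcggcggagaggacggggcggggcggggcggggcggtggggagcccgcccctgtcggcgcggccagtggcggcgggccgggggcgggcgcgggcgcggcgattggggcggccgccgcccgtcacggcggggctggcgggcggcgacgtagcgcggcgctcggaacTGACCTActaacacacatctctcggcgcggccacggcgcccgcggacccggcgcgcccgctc

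In the Ciart window the E-boxes began 116, 58 and 44 bases before the start. The E-boxes of Tef began 127 bases before its first start and 138 before its second, and that of Bhlhe41 153 bases before its start. The Nfil3 window held the ROR core on the opposite strand, where it reads as TGACCTA, starting 12 bases before the start. This core was in 1 of the 8 windows and in 2.61% of all windows. The windows of Dbp, Hlf and Rora held none of the letters searched, and no window of the group held CACGTT (4.68% of all windows) or the D-box (1.66%). Such matches describe letters in a short window and are no measure of binding. Sequence further upstream or within introns was not searched, so an empty window does not show that a gene lacks E-boxes.

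**Figure D2:**
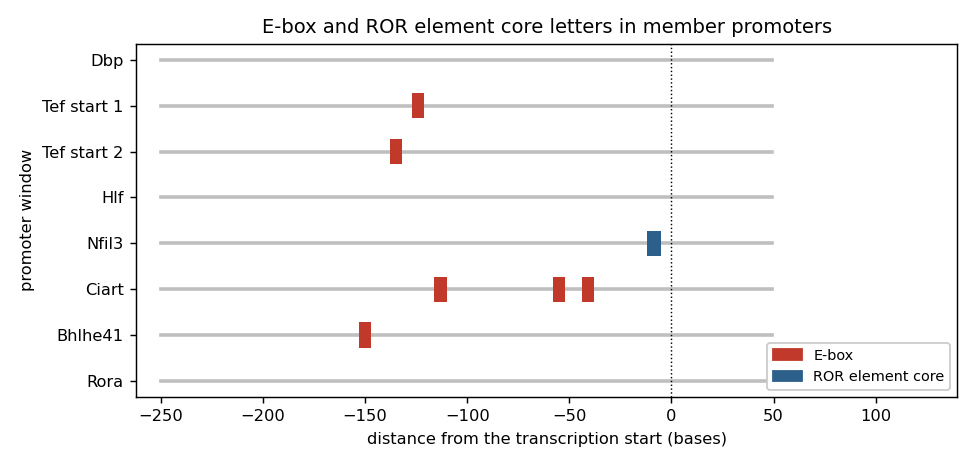
Position of E-boxes (red) and of the ROR element core (blue) in the 8 promoter windows of the group (grey lines), by distance in bases from the transcription start (dotted line). Ciart holds 3 E-boxes, and the windows of Dbp, Hlf and Rora hold neither an E-box nor the ROR core.

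Dbp, the D-site albumin promoter binding protein and the founding PAR bZIP activator, had higher EPA&DHA signals on both of its probesets. Its probeset 1438211_s_at read 6372 on EPA&DHA and 3134 on the control diet, 2.03-fold higher. The other, 1418174_at, read 2926 on EPA&DHA and 1604 on the control diet, 1.82-fold higher. The suffix _s_at marks probes that may be shared by related transcripts, and the probeset without it gave the smaller ratio. The log2 ratios of 1.02 and 0.87 compare with a local SD of 0.23 for each, the robust SD of the log2 ratios of the 500 probesets nearest in signal. Both belong to the 6116 brightest kept probesets, of which 4.09% were higher by 1.5-fold or more.

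Hlf, the hepatic leukemia factor, is a PAR bZIP activator found as a fusion partner in human leukemia, and both of its probesets were higher on EPA&DHA. Its brighter probeset, 1434736_at, read 421 on EPA&DHA and 243 on the control diet, a log2 ratio of 0.79 with a local SD of 0.35. The dimmer, 1434735_at, read 208 on EPA&DHA and 92.3 on the control diet, 2.26-fold higher, with a local SD of 0.48. Both probesets were designed on the same source sequence and are not independent readings of the gene. With kept probesets split by signal into 4 groups of equal size, the brighter lay in a group where 5.09% were higher by 1.5-fold or more, and the dimmer in one where 8.93% were.

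Tef, the thyrotroph embryonic factor, had higher EPA&DHA signals on 3 of 3 probesets but did not reach 1.5-fold on either kept one. The brightest, 1424175_at, read 1936 on EPA&DHA and 1375 on the control diet, 1.41-fold higher where the local SD was 0.27. The next, 1450184_s_at, read 275 on EPA&DHA and 184 on the control diet, a log2 ratio of 0.58 just under the threshold. The last was under the filter, with 51.1 on EPA&DHA and 30.6 on the control diet. All probesets of Tef thus pointed the same way, with smaller kept ratios than those of Dbp and Hlf. Taken as the mean over kept probesets, the log2 ratio was 0.54 for Tef, 0.95 for Dbp and 0.98 for Hlf. In local SDs, the kept log2 ratios were 4.46 and 3.75 for Dbp, 2.24 and 2.43 for Hlf and 1.84 and 1.47 for Tef, which describes their place among probesets of like signal and is no test. The 6 kept probesets of these activators ranged from 1.41-fold to 2.26-fold, all higher on EPA&DHA, and 4 of them passed 1.5-fold.

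**Figure D3:**
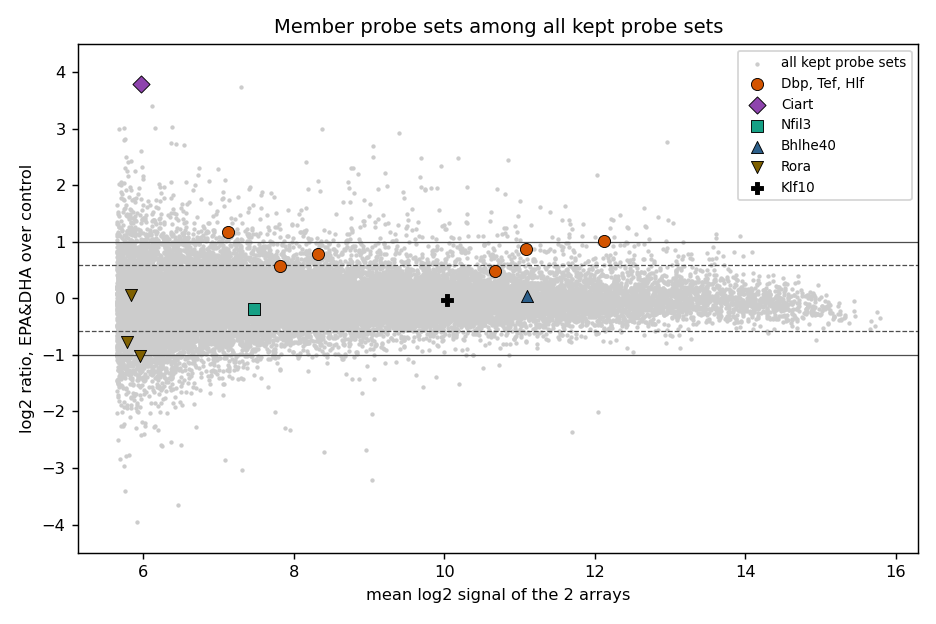
Log2 ratio of EPA&DHA over control (y axis) against the mean log2 signal of the 2 arrays (x axis) for all 24461 kept probesets (grey) and the 13 kept probesets of the group (coloured), with lines at 1.5-fold (dashed) and 2-fold (solid). The PAR bZIP probesets lie from 0.49 to 1.17, Ciart stands at 3.79 among dim probesets, and Bhlhe40, Klf10 and Nfil3 lie between -0.19 and 0.04.

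Nfil3, the bZIP repressor that competes with the PAR bZIP activators for D-boxes, was not higher. Its only probeset, 1418932_at, read 167 on EPA&DHA and 190 on the control diet, a log2 ratio of -0.19 with a local SD of 0.44.

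Ciart, a repressor that binds BMAL1 in the mouse, was read by 1 probeset. This probeset, 1435188_at, read 232 on EPA&DHA and 16.8 on the control diet. The control signal lies under the filter level of 50, so the probeset was kept only through its EPA&DHA signal, and the local SD was 0.71. The log2 ratio of 3.79 was 2.21 when signals under 50 were set to 50 and 2.08 when 50 was added to each signal, so the size of the ratio depended on how a dim value was treated. Filters that asked for a mean signal of 100, or for 50 on both arrays, removed the probeset. Among the 6115 dimmest kept probesets, to which it belongs, 4.74% were higher by 2-fold or more.

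The E-box repressors BHLHE40 and BHLHE41, also known as DEC1 and DEC2, are driven by E-boxes and act on them in turn. Bhlhe40 was nearly equal on the arrays, with 2227 on EPA&DHA and 2168 on the control diet, a log2 ratio of 0.04 with a local SD of 0.23. Bhlhe41 had no kept probeset. Its brighter probeset read 64.1 on EPA&DHA and 37.8 on the control diet, its other one 5.32 on EPA&DHA and 3.02 on the control diet, and the local SDs of 0.74 and 1.63 are close to or above the log2 ratios of 0.76 and 0.82.

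Klf10, a zinc finger repressor induced by TGF-β whose transcript is rhythmic in mouse liver, had almost equal signals on the arrays. Its probeset, 1416029_at, read 1039 on EPA&DHA and 1063 on the control diet, a log2 ratio of -0.03 with a local SD of 0.26. Nfil3, Bhlhe40 and Klf10 spanned log2 ratios from -0.19 to 0.04, each smaller than its local SD.

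Rora, the nuclear receptor RORα, was read by 9 probesets, the most of any member, and by 3 kept ones. The first, 1424034_at, read 43.6 on EPA&DHA and 88.6 on the control diet, a log2 ratio of -1.02. The second, 1424035_at, from the same source sequence, read 58.1 on EPA&DHA and 55.7 on the control diet, a log2 ratio of 0.06. The third, 1420583_a_at, read 42.2 on EPA&DHA and 72.5 on the control diet, a log2 ratio of -0.78. The first and the third come from different source sequences, but both had EPA&DHA signals under 50. A kept probeset with such a signal must have a ratio below 0, so the filter set their shared direction. The local SDs of the 3 were 0.67 to 0.76. All of these signals lie at the edge of the filter, and the mean log2 ratio was -0.58. Where a signal of at least 50 was asked for on both arrays, the second was the only one left and the ratio of the gene changed sign, to 0.06. The other 6 probesets had signals from 5.70 to 47.3 and log2 ratios from -3.05 to 2.33, with 3 above 0 and 3 below. Among the 6115 dimmest kept probesets, which include the kept ones of Rora, 21.1% were lower by 1.5-fold or more. Rora is expressed by T cells and innate lymphoid cells in mice. Of 7 markers of these cells, 0 were under the filter, and 1 was higher and 1 was lower by 1.5-fold or more. Among all genes these shares were 6.24% and 8.02%. The markers had a summed signal of 8097 on EPA&DHA and 9550 on the control diet. Most of this came from Gzma alone, with 5391 on EPA&DHA and 6590 on the control diet. The part of these cells in the values of Rora was not tested.

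Of the 9 probesets of the group under the filter, 5 were higher and 2 were lower by 1.5-fold or more. Among all probesets under the filter, 31.3% were higher and 39.9% lower to that extent. Counted by gene, with each gene at its brightest kept probeset, 3 of the 8 measured members, Ciart, Dbp and Hlf, were higher by 1.5-fold or more, against 6.24% of all 11756 genes. Rora was the 1 gene lower to that extent, against 8.02% of all genes. Ciart passed the filter only through its EPA&DHA signal, and the brightest probeset of Rora only through its control signal.

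**Figure D4:**
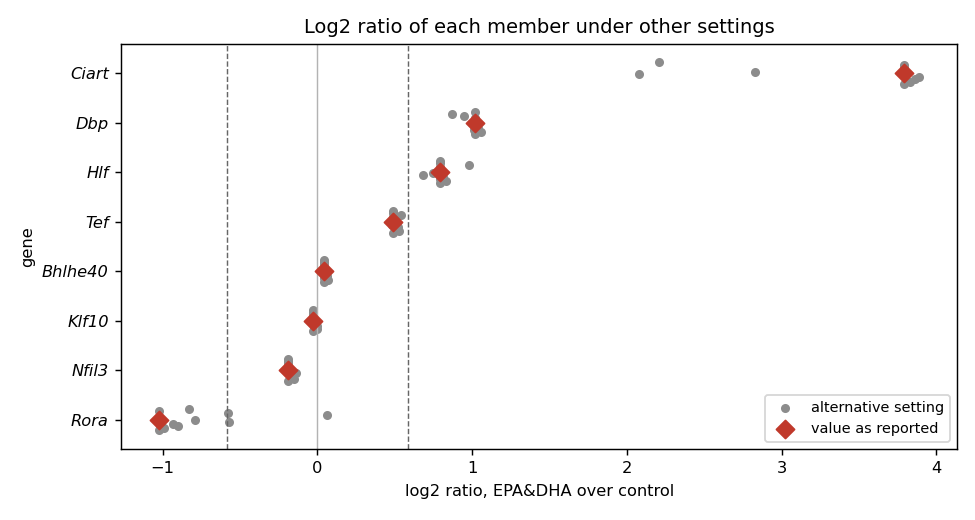
Log2 ratio of EPA&DHA over control (x axis) of each measured member as reported (red diamonds) and under the other settings (grey points), with dashed lines at 1.5-fold. Dbp, Hlf and Tef move little, from 0.48 to 1.06 over all settings, whereas Ciart ranges from 2.08 to 3.89 and Rora from -1.02 to 0.06.

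Genes upstream of these factors, in the core loop, differed in both directions. Of 12 measured genes of the core clock, 3 were higher and 2 lower by 1.5-fold or more, against 6.24% and 8.02% of all genes. The median log2 ratio of the loop was 0.20. Those higher were Cry2, Per2 and Per3, repressors that the E-box drives, with log2 ratios of 1.06, 1.03 and 1.02. The other kept probesets of Per3 ranged from 0.77 to 1.27, and those of Per2 stood at 0.70 and -0.07. Those lower were the activators Npas2, at -0.95 and, on its dimmer probeset, -1.43, and Arntl, the older symbol of Bmal1. Arntl stood at -0.82 on its brighter probeset and -0.19 on its dimmer one. Clock, also an activator, stood at -0.05 on its brightest probeset and from 0.08 to 0.30 on its other kept ones. Nr1d1, the repressor REV-ERBα that acts on ROR elements, read 641 on EPA&DHA and 658 on the control diet, and its relative Nr1d2 had a log2 ratio of 0.48. With the mean over probesets in place of the brightest, 2 genes of the loop were higher and 1 was lower by that much.

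Genes known from mice or rats to be driven through PAR bZIP factors or D-boxes had log2 ratios at or above 0 on their brightest probesets. Of 10 genes listed, 6 were measured. Of these, 3 were higher and 0 lower by 1.5-fold or more, against 6.24% and 8.02% of all genes. Their median log2 ratio was 0.56, where the median of all genes was -0.05. The list was chosen with earlier results of these data known, so its counts are a description only. Abcb1a, the drug efflux pump P-glycoprotein, read 18065 on EPA&DHA and 8577 on the control diet, 2.11-fold higher, and its other probeset was 2.61-fold higher. Slc15a1, the peptide transporter of the brush border, read 4506 on EPA&DHA and 2553 on the control diet. Ppara, which encodes the receptor PPARα, stood at a log2 ratio of 0.87 where it was brightest. Alas1, the first enzyme of heme synthesis, Nr1i3, the xenobiotic receptor CAR, and Cyp2b10, a drug-metabolizing cytochrome P450, had log2 ratios of 0.05, 0.30 and 0.00, and a dimmer probeset of Alas1 that may bind related genes stood at 0.61. PPARα is itself activated by fatty acids, EPA and DHA among them.

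**Figure D5:**
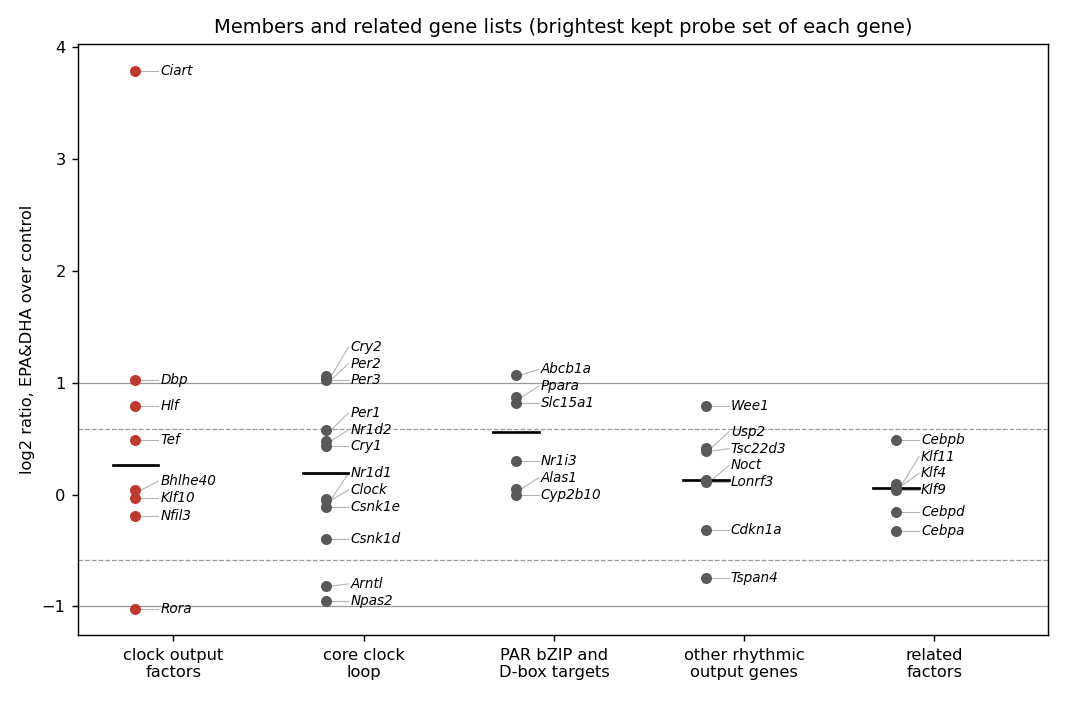
Log2 ratio of EPA&DHA over control (y axis) of each measured gene of the group (red) and of 4 related lists (grey), at its brightest kept probeset, with black bars at list medians and lines at 1.5-fold (dashed) and 2-fold (solid). Medians were 0.27 for the group, 0.20 for the core loop, 0.56 for the D-box targets, 0.13 for other rhythmic genes and 0.06 for related factors.

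Among 7 other genes that are rhythmic in many mouse tissues, Wee1, a kinase that delays mitosis, had a log2 ratio of 0.79. The dimmer probeset of Wee1 stood at 0.53, under 1.5-fold. Tspan4, a tetraspanin, had a log2 ratio of -0.75 on a dim probeset with 39.1 on EPA&DHA and 65.7 on the control diet. The other 5 lay between -0.32 and 0.42, each at its brightest probeset. The highest of these was the deubiquitinase Usp2, whose other kept probeset read 2409 on EPA&DHA and 1436 on the control diet, a log2 ratio of 0.75. The dimmer probeset of Lonrf3 stood at -0.61, against 0.11 on the brighter, and a dimmer probeset of Tsc22d3 that may bind related genes at 0.72, against 0.39 on the brightest. Of 6 measured relatives of the members outside the group, 0 passed 1.5-fold in either direction. Klf9, Klf4 and Klf11, zinc finger factors of the same family as Klf10, had log2 ratios of 0.04, 0.08 and 0.09 on their brightest probesets, although the other kept probesets of Klf9 ranged from -0.44 to 0.87, and Cebpb, a bZIP factor, had one of 0.49.

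Markers of other cells and of hormonal state also differed between the arrays. All 9 measured genes of 12 listed for the exocrine pancreas were higher on EPA&DHA by 1.5-fold or more at their brightest probesets. Their summed signal was 16542 on EPA&DHA and 5970 on the control diet. Of all genes, 6.24% were higher to that extent, and the dimmer probeset of Clps stood at a log2 ratio of 0.41. Of 8 genes that respond to glucocorticoids, 3 were higher by 1.5-fold or more, against 6.24% of all genes. These were Mt2 at a log2 ratio of 1.48, Mt1 at 0.79 and Fkbp5 at 0.69. The 1 lower to that extent, against 8.02% of all genes, was the dim Zbtb16 at -0.95. The dimmer kept probesets of Fkbp5 and Zbtb16 stood at -0.12 and 0.27. The 9 measured markers of absorptive enterocytes had log2 ratios from -0.38 to -0.03 on their brightest probesets and a summed signal of 275441 on EPA&DHA and 320122 on the control diet. Other bright probesets of the same markers did not all lie below 0, with the glucose transporter Slc5a1 at 0.74 (20716 on EPA&DHA and 12383 on the control diet) and the lipid transfer protein Mttp at 0.21. The ratio of 3′ to 5′ signal, a measure of intact RNA, was 0.793 on EPA&DHA and 0.932 on the control diet for Gapdh. For Actb it was 1.16 on EPA&DHA and 1.22 on the control diet. The part of pancreatic RNA, glucocorticoids or RNA quality in the ratios of the clock output factors was not tested. Clock genes vary over the day, and since the hour of killing was not given for either pool, diet and any difference in hour cannot be told apart here.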

How the data were processed

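RNA pooled from the small intestine of mice on each diet was hybridized to Affymetrix MOE430_2 arrays, and the authors summarized each probeset with MAS 5.0. The deposited values are MAS 5.0 signals on a linear scale, scaled by the authors so that the 2% trimmed mean of each array is near 500. The table held 45101 probesets, and 64 control probesets were set aside. Gene names came from the platform annotation, updated by gene identifier, with 34945 probesets naming 1 gene, 932 several and 9160 none. Genes missing from this annotation are not reported here.

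Arrays were rescaled to the same 2% trimmed mean. Probesets with a geometric mean signal of at least 50 were kept, 54.3% of 45037, and log2 ratios (EPA&DHA over control) were counted at 1.5-fold and 2-fold without an offset. A gene took its brightest kept probeset that names it alone. All probesets of the 9 members were examined, and in other lists the genes at least 1.5-fold apart were named; any other gene of a list was named after its values were seen. Members and lists were chosen with earlier results of these data known. The number of arrays, 1 per diet, limits the precision, and no p-value was computed. Detection calls were not used here. Alternatives covered scaling, an offset, the filter and the choice of probeset, and the floor of 50 was added after the data were seen. Ratios of 2-fold, planted with little noise in simulated arrays, were recovered in their median after scaling. This checked the scaling and not the precision of single or dim ratios. Software was matplotlib 3.10.9, statsmodels 0.14.6, pandas 2.3.3 and numpy 2.4.6 under Python 3.11.15.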

Additional observations from a re-analysis of the deposited data

How the results depend on the processing

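The number of member genes at least 1.5-fold higher on EPA&DHA was 3 and ranged from 2 to 4 over all alternatives, and Dbp and Hlf stayed over 1.5-fold in each. The log2 ratio of Tef ranged from 0.48 to 0.54, of Bhlhe40 from 0.04 to 0.07, of Klf10 from -0.03 to 0.00 and of Nfil3 from -0.19 to -0.14. Without a filter, 10 of 22 member probesets were higher by 1.5-fold or more, 4 were lower by that much and 3 were lower by 2-fold or more, as dim probesets entered.

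The lower counts rested on Rora. Its log2 ratio of -1.02 became 0.06 when both arrays had to reach a signal of 50, which left the counts of probesets and of genes at least 1.5-fold lower at 0, in place of 2 and 1. Those counts were also 0 with an offset of 50 and with a mean signal of at least 100, and the count of lower genes was 0 with the mean over probesets. With signals under 50 set to 50, 1 probeset was at least 1.5-fold lower. The 2-fold lower count of 1 was 0 after centring on the median, quantile normalization, the loess correction, either offset, a mean signal of at least 100, a signal of 50 on both arrays and the floor of 50. The log2 ratio of Ciart was 2.08 with an offset of 50 and 2.83 with an offset of 18.3, the 25th percentile of signals. The share of all kept probesets at least 1.5-fold higher was 4.45% with an offset of 50 and 18.7% without a filter, and the share at least 1.5-fold lower was 4.20% with that offset, 5.33% with a mean signal of at least 100 and 23.1% without a filter. The share at least 2-fold higher ranged from 0.948% to 12.3% and at least 2-fold lower from 0.429% to 15.2%, the lowest with an offset of 50 and the highest without a filter. Among genes of the lists, the count of lower core clock genes was 1 in place of 2 with the mean over probesets, and that of lower B and plasma cell genes was 1 in place of 3 with an offset of 50. No paired analysis was possible because each diet has 1 array. Signals near or under 50 limit what can be said of Rora, Bhlhe41 and the control level of Ciart.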

Other observations

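Bhlhe40, Nfil3 and Klf10 also respond quickly to stimulation of cells, so lists of quick responses were examined beside them. Of 8 measured immediate early genes, 0 were higher and 1 was lower on EPA&DHA by 1.5-fold or more, against 6.24% and 8.02% of all genes. The lower one was the zinc finger factor Egr1, with a signal of 381 on EPA&DHA and 576 on the control diet and a log2 ratio of -0.60. Fos, the most studied gene of the list, read 11961 on EPA&DHA and 12051 on the control diet, and the median of the list was -0.12. Egr1 passed 1.5-fold neither after centring on the median or the loess correction nor with either offset. Of 6 measured early targets of TGF-β, the cytokine that induces Klf10, 0 passed 1.5-fold in either direction, with log2 ratios from -0.55 for Skil, a repressor of SMAD proteins, to 0.20 for Id2, whose other kept probesets stood at -0.57 and 0.38.

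Among cells that could contribute to these signals, markers of B and plasma cells included 3 of 5 measured that were lower on EPA&DHA by 1.5-fold or more. Of all genes, 8.02% were lower to that extent. The 3 markers were Ms4a1 at a log2 ratio of -0.75, Cd79a at -0.71 and Cd79b at -0.65. The dimmer probeset of Ms4a1 stood at -0.11, and Jchain, the chain that joins secreted antibodies, was at 0.37. The T cell markers past 1.5-fold were Cd3e, with a log2 ratio of 0.61, and Cd8a, with one of -0.82 on its brightest probeset and from -0.52 to 0.02 on its other kept ones. None of the 5 measured smooth muscle genes or the 6 of macrophages and dendritic cells passed 1.5-fold at its brightest kept probeset. Nor did any of the 6 of goblet and Paneth cells or the 6 of enteroendocrine cells. Dimmer kept probesets of the goblet and Paneth cell markers Clca1 and Lyz1 stood at -0.93 and -1.49, and another of Lyz1 at -0.13. Enteric neurons and glia had 0 measured genes, with 4 of their listed genes under the filter.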
